A study of Mus musculus with 10 samples.

Results

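The genes described here encode the cytokines of the interleukin-1 (IL-1) and IL-36 family, with the IL-1 receptor antagonist and the decoy receptor IL-1R2. They were chosen by symbol: Il1a, Il1b, Il1rn, Il1r2, Il18 and Il33, with the IL-36 genes, which the deposited values list under their older names Il1f6 (Il36a), Il1f8 (Il36b), Il1f9 (Il36g) and Il1f5 (Il36rn, the IL-36 receptor antagonist). All 10 genes looked for were present among 17016 gene symbols. The mice were BALB/c females, 10 to 11 weeks old, and whole skin was taken from shaved backs treated with a 5% cream of imiquimod (an agonist of the innate sensor TLR7 that causes psoriasis-like inflammation) on 5 days. One group also received the dopamine DRD2 receptor agonist quinpirole by 5 intraperitoneal injections and the other received vehicle, with 5 libraries each. Every group thus had imiquimod, skin without it was not analysed here, and the comparison asks how inflamed skin differed with and without quinpirole. Whether each numbered sample was its own animal is not in the labels, and a p-value here reflects sample-to-sample spread, which may be technical.

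IL-1 alpha and IL-1 beta act through the receptor IL-1R1 and its partner IL-1RAP, which recruit MyD88 and switch on NF-kB. The receptor antagonist occupies IL-1R1 without signalling, and IL-1R2 binds the cytokines without signalling. The IL-36 cytokines are made mainly by epithelial cells such as keratinocytes, act through IL1RL2 with the same partner and are opposed by their own antagonist, whose loss in humans causes a pustular form of psoriasis. IL-1 beta and IL-18 are made as precursors that inflammasomes activate through caspase-1, and IL-33 is a nuclear alarmin that reaches the receptor ST2 on mast cells and other cells when cells are damaged.

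Recovered reads per library ranged from 6763367 to 8361877. A level is given in CPM, reads scaled to a common library size by the authors' normalisation, where 1 read was worth 0.119 to 0.146. The least read member in any library was Il18, with 116 reads in vehicle replicate 1. Keratinocyte markers (9 genes, among them Krt5, Krt14, Krt1 and Krt10) summed to between 18208 and 28411 CPM in each library, as epidermis should. The libraries stood apart in hair shaft genes: 21 such genes summed to 15.5 to 5304 CPM in vehicle and 14.8 to 5261 CPM with quinpirole. Each of the 21 had a lower value with quinpirole, with a median log2 fold change of -1.60, and none was called. Skeletal muscle markers (12 genes, each higher in value with quinpirole) summed to 511 to 1902 CPM in vehicle and 1055 to 5196 CPM with quinpirole. The fit was therefore also made with the mean log2 level of the hair genes as a covariate, the hair covariate.

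No member passed the test between quinpirole and vehicle. The test was limma on log2 of CPM plus 1, adjusted by the Benjamini-Hochberg method over 14548 genes and called at 0.05, which called 3 genes, or 0.0206%. At an unadjusted p under 0.05 stood 1 of the 10 members, Il18, beside 11.4% of all genes. The groups did not fully separate for any member, where 2.2% of all genes had groups that did not overlap. Of the members, 6 had a lower value with quinpirole, beside 50.4% of all genes, and the median log2 fold change was -0.14 against -0.0021 over all genes. With the hair covariate no member was called either, but 5 of the 10 stood at an unadjusted limma p under 0.05 (Il1a, Il1rn, Il18, Il1f6 and Il1f9), beside 10.9% of all genes. In that fit 9 members had a lower value, all but Il18, beside 50.4% of all genes, with a median of -0.30. On simulated data the same steps called 72.7% of genes simulated with a 2-fold change and 96.3% of those with a 4-fold change. Those sets drew each gene on its own, without the shared hair and muscle shifts of these libraries, and the shares pool all changed genes. They therefore do not give the chance of calling a given member, such as Il1b with its SE of 0.57 on the log2 scale.

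**Figure D1:**
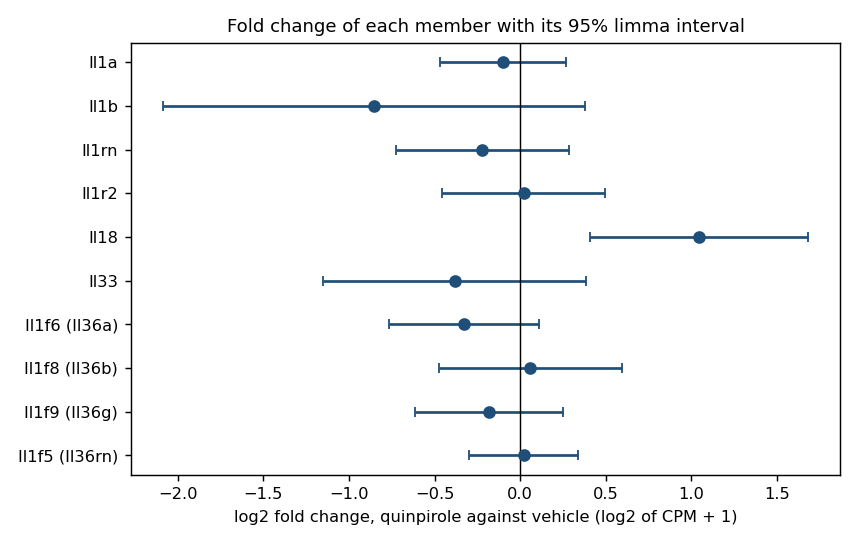
Log2 fold change of each member, quinpirole against vehicle, from values as log2 of CPM plus 1; points are limma estimates and bars their 95% intervals, with 5 libraries per group. The interval of Il18, 0.41 to 1.68, lies above 0 before adjustment, and those of the other members span 0, widest for Il1b (-2.09 to 0.38).

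Il18 had a higher mean with quinpirole and was the 1 member at an unadjusted p under 0.05 in the fit without covariates. IL-18 is a keratinocyte and myeloid cytokine that drives interferon-gamma production with other signals. Its level was 14.6, 42.6, 37.3, 31.6 and 55.9 CPM in vehicle replicates 1 to 5. With quinpirole it was 49.7, 93.5, 70.1, 75.7 and 68.2 CPM in replicates 1 to 5. Each of quinpirole replicates 2 to 5 was above every vehicle library, and quinpirole replicate 1 lay below vehicle replicate 5 only. The means were 36.4 ± 15.2 and 71.4 ± 15.7 CPM (SD, n = 5 each). On the log2 scale the difference was 1.05, SE 0.29 (limma, unadjusted p = 0.00385, adjusted p = 0.232). The direction was kept in each of 23 alternatives, with log2 fold changes from 0.76 (without vehicle replicate 1, the lowest library) to 1.23 (without vehicle replicate 5). DESeq2 on the recovered reads called Il18 (log2 fold change 0.97, adjusted p = 0.0447), in a test that called 1.51% of genes, and limma and edgeR did not. With the hair covariate the log2 fold change was 0.87 (limma adjusted p = 0.237).

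Over the 10 libraries, the genes whose log2 levels followed Il18 most closely were the late cornified envelope genes Lce1c (Pearson's r = 0.97) and Lce1b (r = 0.97) and Kctd4 (r = 0.97). These were the 3 highest among all tested genes outside the family, so the r is a description of libraries that share depth and tissue make-up. LCE1 proteins are laid down in the outer epidermis at the end of differentiation. Lce1c measured 198 ± 78.2 CPM in vehicle and 374 ± 116 CPM with quinpirole, a difference of 0.96 in log2 (limma adjusted p = 0.237). Its lowest library was vehicle replicate 1, at 103 CPM, and its highest quinpirole replicate 2, at 560 CPM, as for Il18. Of the 9 keratinocyte markers, 5 had higher and 4 lower values with quinpirole, with summed levels of 19921 to 26067 CPM in vehicle and 18208 to 28411 CPM with quinpirole. Mast cell markers also moved with Il18, with 5 of 6 tested genes higher in value and sums of 80.6 to 140 CPM in vehicle and 127 to 217 CPM with quinpirole. Endothelial markers had 5 of 6 genes lower in value, with sums of 130 to 274 CPM in vehicle and 112 to 215 CPM with quinpirole. Over the 10 libraries the r of Il18 with a list mean was 0.63 for keratinocyte, 0.60 for mast cell and 0.56 for muscle markers. It was -0.62 for neutrophil, -0.60 for endothelial and -0.58 for hair shaft markers. Without the 2 libraries farthest from a list's median, r was 0.76 for keratinocyte, 0.52 for mast cell and 0.45 for muscle markers. It was then -0.55 for hair shaft markers, but -0.060 for neutrophil and -0.017 for endothelial markers. The part of tissue make-up in the Il18 difference was not tested.

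**Figure D2:**
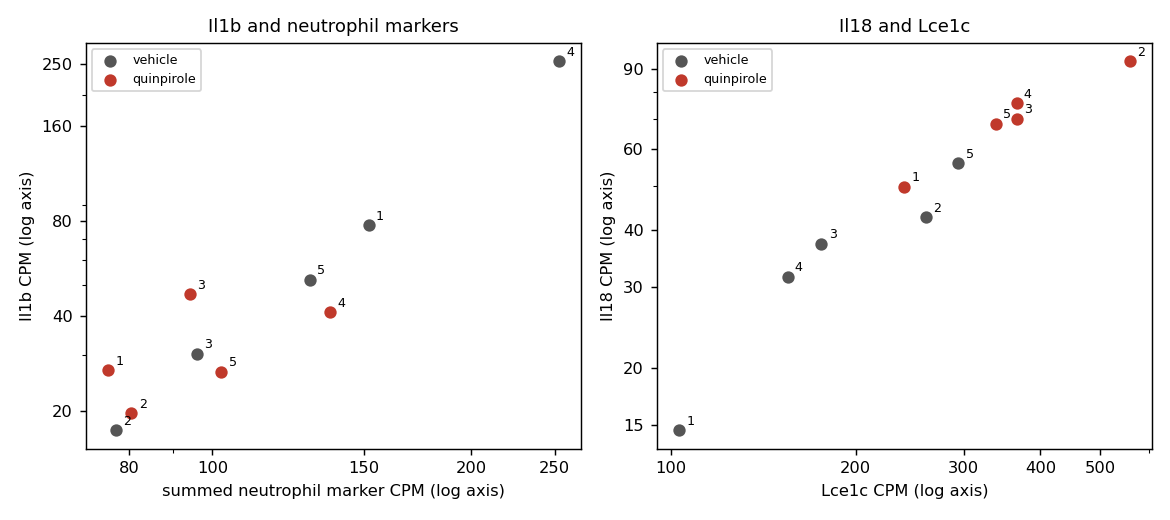
Left, Il1b against the summed level of 11 neutrophil markers; right, Il18 against Lce1c; each point is a library with its replicate number, in CPM on log axes. Vehicle replicate 4 is highest for both Il1b (256 CPM) and the neutrophil sum (253 CPM), and vehicle replicate 1 lowest for both Il18 (14.6 CPM) and Lce1c (103 CPM).

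Il1b, which encodes the secreted IL-1 beta of activated myeloid cells, varied most of the members. It measured 77.4, 17.4, 30.4, 256 and 52.0 CPM in vehicle replicates 1 to 5 and 26.9, 19.7, 46.9, 41.1 and 26.6 CPM in quinpirole replicates 1 to 5. Vehicle replicate 4 alone was above 80 CPM, and the other 4 vehicle libraries spanned the quinpirole range. The SD was 112% of the mean in vehicle and 35.1% with quinpirole. The log2 fold change of -0.85 (SE 0.57, limma adjusted p = 0.604) was -0.31 without vehicle replicate 4 and -1.26 without vehicle replicate 2, the lowest library (limma adjusted p = 0.829 and 0.389). With the hair covariate it was -1.02 (limma adjusted p = 0.567). On recovered reads edgeR gave -1.43 (adjusted p = 0.385) and DESeq2 -1.42 (adjusted p = 0.359).

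Il1b followed neutrophil genes. Its closest genes over the 10 libraries were Trem1 (r = 0.96), a receptor that amplifies myeloid inflammation, Cd300lf (r = 0.95), a myeloid receptor, and Mmp8 (r = 0.95), the collagenase of neutrophil granules. Trem1 and Mmp8 also belong to the neutrophil list used here. The mean log2 level of its 8 tested genes had r = 0.97 with Il1b over the 10 libraries, and 0.90 without vehicle replicate 4. Of these 8 genes, 7 had lower values with quinpirole. The 11 listed genes in the values summed to 77.2 to 253 CPM in vehicle and 75.6 to 137 CPM with quinpirole. Cxcr2, the 1 tested gene of the list without a lower value, had means of 52.9 and 54.2 CPM. It made up 86.9 of the 137 CPM in quinpirole replicate 4. Csf3r, the receptor of granulocyte colony-stimulating factor, measured 83.5 CPM in vehicle replicate 4 and 16.6 to 51.8 CPM in the other libraries. The late granule genes Ltf and Cd177 were at 0 in some libraries. In whole skin, fewer cells of a type and less RNA per cell cannot be told apart, and the part of neutrophil number in the Il1b values was not tested.

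**Figure D3:**
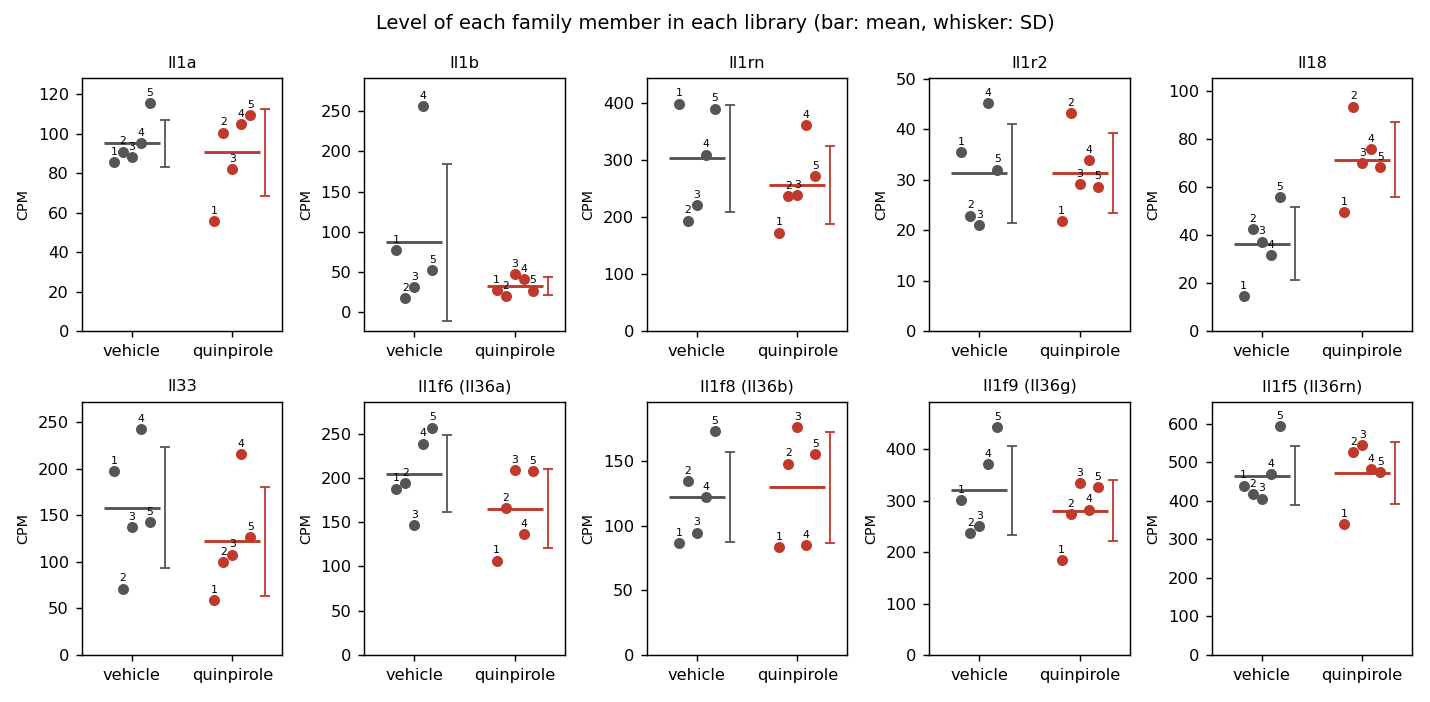
Level in CPM of each of the 10 members in each library, numbered by replicate; horizontal bars are group means and whiskers the SD (n = 5). Il1b is set apart by vehicle replicate 4 at 256 CPM, and for Il18 all quinpirole libraries but replicate 1 (49.7 CPM) lie above the highest vehicle library (55.9 CPM).

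Il1a, whose product keratinocytes store and release on damage, lies next to Il1b but did not share its pattern. It measured 85.6, 91.0, 88.3, 95.4 and 116 CPM in vehicle replicates 1 to 5. With quinpirole it measured 55.9, 101, 82.3, 105 and 110 CPM. Quinpirole replicates 1 and 3 lay below every vehicle library and the other 3 within the vehicle range. The log2 fold change was -0.10 (95% interval -0.47 to 0.27, limma adjusted p = 0.864), and -0.25 with the hair covariate (limma adjusted p = 0.433). Leaving out quinpirole replicate 1 turned its sign, to 0.062. Over the 10 libraries r between Il1a and Il1b was 0.10. The genes most like Il1a were P2ry1 (r = 0.90), a receptor for extracellular ADP, Zc2hc1c (0.86) and the kinase Ikbke (0.85). These r were 0.67, 0.51 and 0.54 without the 2 farthest libraries. Zc2hc1c was near the floor, with a mean of 1.26 CPM and 0.357 CPM in quinpirole replicate 1. On the build mm10, Il1a and Il1b are protein-coding genes of chromosome 2 with 7 exons each, both read from the minus strand. Il1a spans 129299610 to 129309972 and Il1b spans 129364570 to 129371139.

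The 250 bases before the start of Il1a, Il1b and Il18, from RefSeq on GRCm38.p6 (the same assembly as mm10), are shown because these genes gave 3 different patterns over the libraries. Motifs were sought on both strands, and capitals mark every match to TATAAA (the TATA box) or TGANTCA (AP-1).
Il1a, chr2:129309973-129310222, minus strand: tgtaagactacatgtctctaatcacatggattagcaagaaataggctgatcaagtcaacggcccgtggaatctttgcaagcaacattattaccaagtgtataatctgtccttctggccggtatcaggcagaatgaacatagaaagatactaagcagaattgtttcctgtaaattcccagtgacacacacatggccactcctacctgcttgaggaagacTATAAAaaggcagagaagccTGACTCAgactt
Il1b, chr2:129371140-129371389, minus strand: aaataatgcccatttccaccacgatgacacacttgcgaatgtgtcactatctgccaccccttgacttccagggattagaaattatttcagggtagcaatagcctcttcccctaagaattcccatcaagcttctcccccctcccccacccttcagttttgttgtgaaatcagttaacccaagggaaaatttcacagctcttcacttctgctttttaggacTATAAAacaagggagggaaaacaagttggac
Il18, chr9:50554450-50554699, plus strand: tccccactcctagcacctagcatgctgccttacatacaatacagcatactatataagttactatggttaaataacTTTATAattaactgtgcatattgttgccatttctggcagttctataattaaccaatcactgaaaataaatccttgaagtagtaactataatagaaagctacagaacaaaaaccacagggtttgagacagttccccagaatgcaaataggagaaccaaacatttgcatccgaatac
In Il1a and Il1b the TATAAA lies 32 and 31 bases before the start, on the gene's strand, and Il1a has TGACTCA at 12 bases before it. In Il18 the match is to the other strand, 175 bases before the start. Of the 9 members with a window, 4 had TATAAA at any place on either strand, beside 12.4% of 32851 windows. These were Il1a, Il1b, Il18 and Il33, and in Il33 the match lay 203 bases before the start. TGANTCA was in 3 (Il1a, Il1rn and Il1f8) beside 6.75%, and TTGCNNAA, the C/EBP motif, in 1 (Il1f5) beside 9.56%. The kB consensus and the IRF motif were in none of the 9, beside 3.9% and 2.98% of windows. A match is a run of letters and not a shown binding site.

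The IL-1 antagonist and the decoy receptor overlapped between the groups. Il1rn, which encodes the IL-1 receptor antagonist, measured 398, 193, 221, 309 and 390 CPM in vehicle replicates 1 to 5. With quinpirole it measured 172, 237, 238, 360 and 272 CPM. The groups overlapped, and the log2 fold change was -0.22 (95% interval -0.73 to 0.29, limma adjusted p = 0.763). It was -0.089 without quinpirole replicate 1, -0.37 without vehicle replicate 2 and -0.41 with the hair covariate (limma adjusted p = 0.408 for the last). Its closest genes were the amino acid transporter Slc6a14, Ankk1 and the nucleoside transporter Slc28a3, with r = 0.97, 0.97 and 0.96 over 10 libraries. Il1r2, the decoy receptor, measured 35.5, 22.9, 21.1, 45.2 and 32.0 CPM in vehicle replicates 1 to 5 and 21.8, 43.3, 29.2, 33.8 and 28.7 CPM with quinpirole. It had means of 31.3 ± 9.80 and 31.3 ± 7.93 CPM (log2 fold change 0.02, 95% interval -0.46 to 0.50, limma adjusted p = 0.985). Its sign turned in 7 of 23 alternatives, with values from -0.15 with the hair covariate to 0.16 without vehicle replicate 4. Its closest genes were Nceh1 (r = 0.97), Sgpp2 (0.94) and Srd5a3 (0.93).

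The ratio of Il1b to its antagonist was highest in vehicle replicate 4. The log2 ratio of Il1b to Il1rn was -0.27 in vehicle replicate 4 and -3.48 to -2.36 in the other vehicle libraries. With quinpirole it ranged from -3.59 to -2.34. Against the decoy, the log2 ratio of Il1b to Il1r2 was 2.50 in vehicle replicate 4, -0.40 to 1.13 in the other vehicle libraries and -1.14 to 0.68 with quinpirole. These ratios compare reads of genes of unequal length, so the differences between libraries can be read and the level of a ratio cannot. No test was made of them.

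Il33 measured 197, 71.2, 137, 242 and 143 CPM in vehicle replicates 1 to 5 and 59.1, 99.8, 108, 216 and 127 CPM with quinpirole. The highest library of each group was replicate 4, and the groups overlapped. The log2 fold change was -0.38 (SE 0.35, limma adjusted p = 0.728), from -0.64 without vehicle replicate 2 to -0.16 without quinpirole replicate 1. The hair covariate gave -0.61. Among members Il33 was most like Il1rn (r = 0.84) and Il1b (r = 0.75). Its closest genes outside the family were the chaperonin subunit Cct8, Rcn1 and Samsn1 (r = 0.97, 0.96 and 0.96). Il33 had r = 0.78 with the neutrophil list mean, and 0.76 without vehicle replicate 4. It also had r = 0.66 with the T cell and 0.65 with the monocyte and macrophage list mean. Without the 2 libraries farthest from a list's median, r was 0.77 for neutrophil, 0.93 for T cell and 0.44 for monocyte and macrophage markers. Il33 spans 29925114 to 29960718 of chromosome 19 and Il18 spans 50554827 to 50581840 of chromosome 9, both read from the plus strand.

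None of the 4 IL-36 genes passed the test, and their groups overlapped. Il1f6, which encodes IL-36 alpha, measured 188, 194, 147, 239 and 257 CPM in vehicle replicates 1 to 5. With quinpirole it measured 107, 166, 209, 136 and 208 CPM. Quinpirole replicates 1 and 4 lay below every vehicle library and the other 3 within the vehicle range. Its log2 fold change of -0.33 (SE 0.20, 95% interval -0.76 to 0.11, limma adjusted p = 0.568) was -0.44 with the hair covariate (limma, unadjusted p = 0.0308, adjusted p = 0.386) and -0.18 without quinpirole replicate 1.

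Il1f9, which encodes IL-36 gamma, measured 301, 237, 250, 371 and 443 CPM in vehicle replicates 1 to 5. With quinpirole it measured 185, 274, 335, 283 and 327 CPM, with overlapping groups (log2 fold change -0.18, SE 0.20, limma adjusted p = 0.775). Leaving out quinpirole replicate 1 gave -0.039, and leaving out vehicle replicate 2 gave -0.28. Il1f8, for IL-36 beta, had means of 122 ± 34.6 and 130 ± 42.9 CPM (log2 fold change 0.06, SE 0.25, limma adjusted p = 0.951), and its sign turned in 6 of 23 alternatives. The antagonist Il1f5 had the smallest spread of the members, at 15.8% of its mean over 10 libraries. It ranged from 405 to 594 CPM in vehicle and from 339 to 544 CPM with quinpirole. Its log2 fold change was 0.02 with a 95% interval of -0.30 to 0.34 (limma adjusted p = 0.972), and the sign turned in 6 of 23 alternatives.

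The IL-36 genes were correlated over the libraries, and most pairs less so without the extreme ones. Pearson's r was 0.87 between Il1f6 and Il1f9, 0.85 between Il1f9 and Il1f5, 0.74 between Il1f6 and Il1f8 and 0.71 between Il1f6 and Il1f5 (10 libraries each). Without the 2 farthest libraries these r were 0.85, 0.53, 0.54 and 0.58. For Il1f8 with Il1f9 r was 0.60, and 0.46 without the 2 farthest libraries. For Il1f8 with Il1f5 it was 0.73 and rose to 0.78. Such values were not particular to pairs of IL-36 genes. Il1a had r = 0.76 with Il1f5 and 0.73 with Il1f9, and Il1rn had r = 0.75 with Il1f9. Without the 2 farthest libraries these r were 0.16, 0.074 and 0.74. Quinpirole replicate 1 was the lowest library for all 4 IL-36 genes, and for Il1a, Il1rn and Il33. Its hair shaft sum was 5261 CPM, the second highest. Over the libraries the hair list mean had r = -0.79 with Il1f5, -0.60 with Il1f9, -0.40 with Il1f8 and -0.31 with Il1f6. With the hair covariate the log2 fold changes were -0.34 for Il1f9, -0.049 for Il1f8 and -0.10 for Il1f5 (limma adjusted p = 0.409, 0.972 and 0.826). The log2 ratio of Il1f6 to Il1f5 was -1.47 to -0.97 in vehicle and -1.82 to -1.19 with quinpirole, ranges that overlap. The 4 genes and Il1rn lie within 198 kb of chromosome 2, between 24153161 and 24351494, all read from the plus strand in the order Il1f8, Il1f9, Il1f6, Il1f5 and Il1rn.

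**Figure D4:**
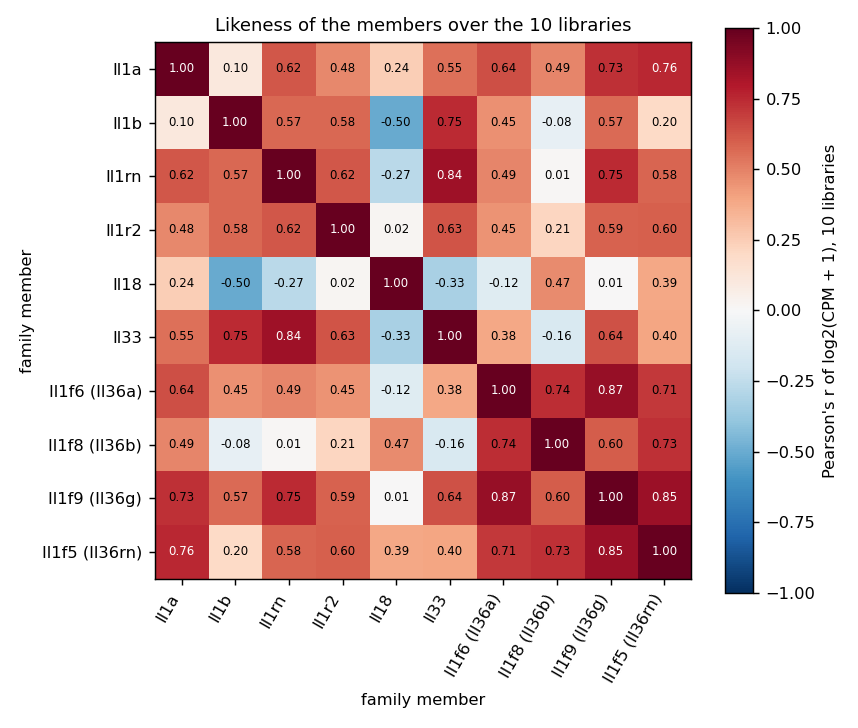
Pearson's r of log2 of CPM plus 1 between each pair of members over the 10 libraries, shown by colour and number. The 4 IL-36 genes are alike (0.60 to 0.87), Il1rn and Il33 are alike (0.84), and Il18 is at or below 0.47 with every other member. Il1a with Il1f5 (0.76) and Il1rn with Il1f9 (0.75) lie in the range of the IL-36 pairs.

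The genes most like each IL-36 member were taken over the 10 libraries. For Il1f6 they were Myzap (r = 0.96), Teddm3 (0.96) and Trex2 (0.95), an exonuclease of stratified epithelium. For Il1f9 they were Cdc26 (r = 0.94), the protease Tmprss13 (0.94) and again Teddm3 (0.94). For Il1f8 they were Frg1 (r = 0.95), the epidermal calcium binding protein Calm4 (0.95) and Dnase1l2 (0.93), a nuclease of cornifying cells. For Il1f5 they were Tmem54 (r = 0.96), Hebp2 (0.96) and Wfdc5 (0.96).

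Per kilobase of annotated exon, Il1f6, Il1f9 and Il1f5 had the highest mean levels of the 10 members in these imiquimod-treated skins. The mean over 10 libraries was 210 CPM per kilobase for Il1f6, 182 for Il1f9, 159 for Il1f5, 104 for Il1f8 and 103 for Il1rn. It was 52.3 for Il18, 48.5 for Il33, 47.1 for Il1a, 43.8 for Il1b and 16.4 CPM per kilobase for Il1r2. Below Il1f5 the order differed between the groups. In vehicle the means were 112 for Il1rn, 101 for Il1f8, 63.9 for Il1b, 54.8 for Il33, 48.2 for Il1a and 35.3 CPM per kilobase for Il18. With quinpirole they were 107 for Il1f8, 94.5 for Il1rn, 69.3 for Il18, 46.0 for Il1a, 42.2 for Il33 and 23.8 CPM per kilobase for Il1b. Ranges over the libraries overlapped for 9 of the 9 neighbouring pairs in this order. Within libraries, Il1f5 was above Il1f8 in 10 of 10, whereas Il1f8 was above Il1rn in 5 of 10 and Il33 above Il1a in 4 of 10. With the longest transcript as the length, Il1rn and Il1f8 changed places.

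**Figure D5:**
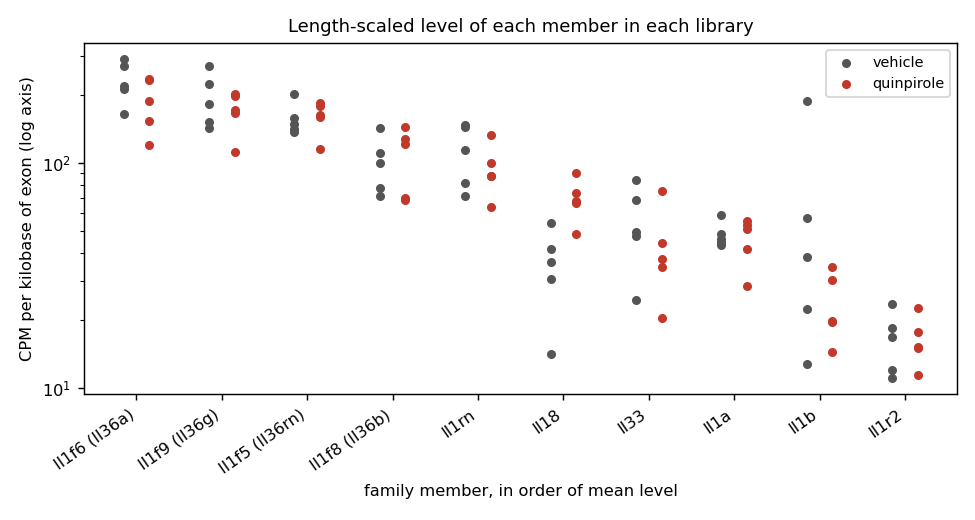
CPM per kilobase of GENCODE exon, on a log axis, for each member in each library, ordered by the mean over 10 libraries. Il1f6, Il1f9 and Il1f5 lead at means of 210, 182 and 159, Il1r2 is lowest at 16.4, and Il1b in vehicle replicate 4 reaches 189.

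The receptors and soluble inhibitors of the family were next compared, from a list of 9 genes of which 8 passed the filter. None was called. In value 4 were higher and 4 lower, with a median of -0.0023 on the log2 scale. Both chains of the IL-18 receptor had lower means with quinpirole. Il18rap measured 18.3 ± 12.0 and 8.67 ± 1.999 CPM (log2 fold change -0.79, SE 0.38, limma adjusted p = 0.460), and Il18r1 10.5 ± 4.56 and 7.49 ± 1.09 CPM (-0.34, SE 0.26, limma adjusted p = 0.658). The Il18rap means rested on vehicle replicates 1 and 4, at 33.6 and 28.8 CPM, where the other vehicle values were 6.69 to 11.9 CPM. Its log2 fold change was -0.52 without vehicle replicate 1. Il18bp, which encodes the secreted protein that binds IL-18, measured 5.63 ± 1.20 and 7.21 ± 0.509 CPM (0.32, SE 0.14, limma adjusted p = 0.407). The IL-36 receptor Il1rl2 measured 75.8 ± 7.55 and 73.9 ± 10.6 CPM, and the shared partner Il1rap 140 ± 24.9 and 148 ± 32.4 CPM.

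Of 21 genes that process or release the cytokines, 18 were tested, none was called and 11 had lower values (median -0.081). The median was 0.031 without quinpirole replicate 4, 0.13 without both libraries numbered 4 and 0.015 with a filter at a mean of 5 CPM, so its sign was not stable. At an unadjusted p under 0.05 stood 5 of the 18, beside 11.4% of all genes, 4 higher and 1 lower in value. Nlrp3, the inflammasome sensor, had a log2 fold change of -0.68 (SE 0.46, limma adjusted p = 0.610) that was -0.27 without vehicle replicate 4, where it measured 24.97 CPM. Aim2, a sensor of cytosolic DNA, measured 12.9 ± 3.44 and 7.78 ± 1.53 CPM (-0.65, SE 0.19, limma adjusted p = 0.242), and -0.53 to -0.77 when single libraries were left out. The mast cell chymase Cma1 measured 22.1 ± 6.79 and 33.998 ± 7.52 CPM (0.62, SE 0.20, limma adjusted p = 0.275). Caspase-1, Casp1, measured 54.9 ± 10.6 and 62.8 ± 4.43 CPM (0.21, SE 0.12, limma adjusted p = 0.546).

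The signalling list held 19 tested genes, none called, with 10 lower in value and a median of -0.0073. Its largest log2 fold changes were 0.21 for the ubiquitin ligase Peli1, -0.21 for the adaptor Myd88 and 0.17 for Tab3 (limma adjusted p = 0.601, 0.638 and 0.517).

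Of 22 genes that IL-1 and IL-36 are known to induce, 19 were tested and none was called, with 13 lower in value and a median of -0.084. At an unadjusted limma p under 0.05 stood 4 of the 19, beside 11.4% of all genes. Ccl2 was higher, and S100a8, S100a9 and Ptgs2 were lower in value. The log2 fold changes of these lower genes were -0.98, -1.05 and -0.95 (limma adjusted p = 0.270, 0.260 and 0.433). The median was -0.27 with the hair covariate, -0.26 without vehicle replicate 2 and 0.016 without quinpirole replicate 1, so its sign rested on that library. The neutrophil-attracting chemokine Cxcl2 measured 16.3, 3.99, 6.16, 82.0 and 9.65 CPM in vehicle replicates 1 to 5 and 0.763 to 16.4 CPM with quinpirole. Its log2 fold change of -1.33 (SE 0.73, limma adjusted p = 0.520) was -0.69 without vehicle replicate 4, the library that was also highest for Il1b. Cxcl3 had -1.17 (SE 0.57, limma adjusted p = 0.469), and -0.64 without that library. Ccl2, which attracts monocytes, went the other way, at 3.28 to 8.19 CPM in vehicle and 9.13 to 30.01 CPM with quinpirole. It was the 1 tested gene of the list whose groups did not overlap, beside 2.2% of all genes. Its log2 fold change was 1.14 (SE 0.31, limma adjusted p = 0.227), and 0.89 without quinpirole replicate 4, its highest library. DESeq2 called Ccl2 and S100a9 of this list (log2 fold changes 1.33 and -0.99, adjusted p = 0.0153 and 0.0412), beside 1.51% of all genes.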

How the data were processed

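Per the labels' protocols, ribosomal RNA was removed from skin RNA before directional library preparation. Tools listed in the submitters' processing notes are RSEM 1.3.0, Bowtie2, edgeR and Trimmomatic 0.38, and the build is mm10; their order is not stated there. Annotation and gene filter: not given in the sources used here. The authors deposited normalised values, a signal per gene and library. In each library 100% of values were whole multiples of 1 step, within 0.001 of a read, so reads could be recovered. TMM factors computed from these reads with edgeR matched those implied by the column totals within 2.22e-16, so the values equal CPM on TMM library sizes.

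Values were transformed as log2 of CPM plus 1. Genes with at least 1 CPM in at least 5 libraries (14548) were tested in R 4.3.3 with limma 3.58.1, fitting the variance as a trend on the mean; tests were two-sided and no covariate was used. Alternatives used edgeR 4.0.16 and DESeq2 1.42.0 on recovered reads, pseudocounts of 0.1 and 5, filters, scaling, variance models, the replicate number as a block, the hair list mean as a covariate and single libraries left out. The same steps were tested on 5 simulated sets of 14548 genes with 200 changed, where 4.68% of calls were on unchanged genes. In a further set with no change simulated, 0 genes were called. All these sets drew each gene on its own, without the shared hair and muscle shifts of these libraries. Exon lengths and positions came from GENCODE M21 on the same build. Figures were drawn with matplotlib 3.10.9.

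The members and gene lists were chosen with earlier results of these data known. Genes named are the members, the 3 largest log2 fold changes of each pathway list and the 3 genes with the highest r to each member, leaving out provisional symbols. Named beside these after their values were seen are Il1rl2, Il1rap, Casp1, S100a8, S100a9, Ptgs2, Csf3r, Cxcr2, Ltf and Cd177.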

Additional observations from a re-analysis of the deposited data

Results flagged for a closer look

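Il1b in vehicle replicate 4 measured 256 CPM, where the other 4 vehicle libraries lay between 17.4 and 77.4 CPM. It was set apart because its gap to the next library took more than 0.71 of the range of its group, the 95% critical value of Dixon's test for 5 samples. The 10 members, in CPM only, and 6 log2 ratios gave 32 groups of 5 libraries to examine, and this was the 1 that passed. Chance flags about 1 in 20, so 1 flag in 32 groups is not more than chance would give. The log2 ratio of Il1b to Il1rn was also highest in vehicle replicate 4, but its gap took 0.65 of the range and was not flagged. The same library had the highest neutrophil marker sum (253 CPM), Nlrp3 (24.97 CPM) and Cxcl2 (82.0 CPM) of the 10, and the part of neutrophils in the Il1b value was not tested.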

How the results depend on the processing

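Of 230 member values over 23 alternatives each, 209 kept their direction and their side of the threshold, 20 turned in sign and 1, Il18 by DESeq2 (0.97, adjusted p = 0.0447), passed it. DESeq2 thus called 1 member and 2 pathway genes, beside 1.51% of all genes, where the other alternatives called none of these. Values that turned lay near 0: quantile normalization gave -0.017 for Il1f5, edgeR and DESeq2 gave -0.0085 and -0.0031 for Il1r2, and the hair covariate gave -0.15 for Il1r2, -0.049 for Il1f8 and -0.10 for Il1f5. Leaving out single libraries gave -0.18 to 0.062 for Il1a, -0.10 to 0.16 for Il1r2, -0.068 to 0.20 for Il1f8 and -0.034 to 0.14 for Il1f5; the cause was not tested. The count of all genes called, 3, was 5 with a pseudocount of 0.1, with scaling to column totals and by edgeR, 6 without a filter, 9 without a trend, 14 with the hair covariate and 219 by DESeq2. It was 0 with the replicate block and without both libraries numbered 4, with 1576 and 1453 genes at an unadjusted limma p under 0.05, and 0 to 10 without single libraries (10 without vehicle replicate 5). The numbers were not taken to pair the samples. Same-numbered libraries deviated together at correlations from -0.24 to 0.22, over 0.1 in 3 of 5 pairs. Only vehicle replicate 1 was best matched by the quinpirole library of its own number. These values do not settle whether the samples were paired. With the block Il18 had an unadjusted limma p of 0.000414 and an adjusted p of 0.136, and no member was called. At 5 libraries per group the narrowest 95% interval of a member was -0.30 to 0.34 (Il1f5) and the widest -2.09 to 0.38 (Il1b).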

Other observations

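Below the filter for testing were Il1f10, which encodes IL-38, at 0.396 to 2.36 CPM in vehicle and 0.254 to 1.17 CPM with quinpirole, and the growth factor genes Csf2 (0.142 to 1.13 and 0.476 to 1.02 CPM) and Csf3 (0 to 1.98 and 0.437 to 0.763 CPM). Also below it were Defb4 (0 to 2.25 CPM in vehicle and 0.127 to 0.646 CPM with quinpirole) and Ctsg (0 to 0.28 and 0 to 0.382 CPM). All of these are a few reads per library, and no test was made of them. Among genes that cut or release the cytokines, the skin inflammasome gene Nlrp10 measured 122 ± 28.5 CPM in vehicle and 167 ± 37.9 CPM with quinpirole (SD, n = 5 each), the gasdermin Gsdmc 228 ± 48.1 and 300 ± 55.2 CPM, and Casp4 26.7 ± 7.48 and 37.4 ± 10.7 CPM. Their limma adjusted p were 0.339, 0.367 and 0.412, so none passed the test. They were named after their values were seen.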
